A study of Mus musculus with 12 samples.

Results

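The phagocyte NADPH oxidase and the antioxidant enzymes were followed in eosinophils of the mouse small intestine (SI) through 9 genes, Cybb, Cyba, Ncf1, Ncf4, and Rac2 of the oxidase and Sod1, Sod2, Cat, and Gpx1 of the antioxidant enzymes. The genes were chosen by name, each matched 1 row of the 36047 genes measured, and all 9 averaged more than 10 normalized counts, as did 15249 genes in all, which were the ones tested. The α4β7+, α4β7- CD22-, and CD22+ subsets (a4b7 in the sample labels) were sorted from the SI lamina propria and sequenced as 4 libraries each, 12 in all. In the study they stand, in that order and only approximately, for cells from early to late in their stay in the tissue. All groups came from wild type C57BL/6J mice, labelled female, and the study's methods give an age of 6 to 12 weeks and 2 mice pooled per library. The study's methods describe both sexes. The subsets are defined by surface protein at 1 time of collection, so that a difference between them is not a change followed in the same cells.

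Eosinophils, like neutrophils, carry an enzyme complex that passes electrons from NADPH across a membrane onto oxygen to make superoxide. The membrane part consists of gp91phox and p22phox, and it becomes active when cytosolic proteins, among them p47phox and p40phox, and the GTPase RAC2 join it. Superoxide dismutases turn superoxide into hydrogen peroxide, which catalase and the glutathione peroxidases remove, and eosinophil peroxidase of the granules uses hydrogen peroxide to oxidize halides.

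Expression of 8 of the 9 genes was highest in the α4β7+ subset, and Ncf4 was the exception. The log2 fold change relative to α4β7+ was thus below 0 for 8 of the 9 genes in each other subset. Of the 15249 genes tested, it was below 0 for 7566 in α4β7- CD22- and for 7403 in CD22+ eosinophils. A gene was called when limma's Benjamini-Hochberg adjusted p over all genes tested was at most 0.05 and the fold change was at least 1.5. In α4β7- CD22- eosinophils, 3 of the 9 genes (Cybb, Sod2, and Gpx1) were called lower than in α4β7+ eosinophils and 0 were called higher, while 4.35% of all genes tested were called lower and 3.70% higher. In CD22+ eosinophils, 5 of the 9 genes (Cybb, Ncf1, Sod2, Cat, and Gpx1) were called lower than in α4β7+ eosinophils and 0 higher, against 6.39% and 5.60% of all genes. Ncf1 and Cat were not called there with libraries rescaled to the same total or with quantile normalization. With the latter, Cybb was not called in α4β7- CD22- eosinophils. Between CD22+ and α4β7- CD22- eosinophils 0 of the 9 genes were called, against 0.393% of all genes lower and 0.210% higher, and 5 of the 9 were lower at an unadjusted p under 0.05 (Cybb, Cyba, Ncf1, Rac2, and Gpx1), against 6.02% of all genes lower at that p and 3.65% higher. The first 2 comparisons share the α4β7+ libraries, and their values are given side by side.

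The median log2 fold change of the 9 genes was -0.45 in α4β7- CD22- and -0.63 in the CD22+ subset relative to the α4β7+ subset, and -0.19 between the latter subsets. The medians over all genes tested were 0.00305, 0.0138, and -0.00144. On the adjusted p alone, regardless of the fold, 7 of the 9 genes passed in α4β7- CD22- eosinophils (14.9% of all genes) and 9 of 9 in CD22+ cells (21.1% of all genes), and Ncf4 was the 1 gene with a higher level in each. The same threshold was passed by Cybb and Ncf1, 2 of the 9, between the CD22+ and α4β7- CD22- subsets (1.08% of all genes). These shares depend on the scaling, and with libraries rescaled to the same total 504 genes were lower and 820 higher in α4β7- CD22- eosinophils in place of 664 and 564, and 690 were lower and 1513 higher in CD22+ eosinophils in place of 975 and 854. Between the latter subsets the split was 44 and 40 in place of 60 and 32. The 9 genes together made up 0.726 to 0.754% of the normalized counts of a library in the α4β7+ subset, 0.547 to 0.618% in the α4β7- CD22- subset, and 0.486 to 0.515% in the CD22+ subset, so that these shares did not overlap. Ncf1 and Cybb alone held 70.8 to 78.4% of that sum, which therefore describes mostly these 2 genes. In RNA from sorted populations, fewer cells with a transcript and less of it per cell cannot be told apart.

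**Figure D1:**
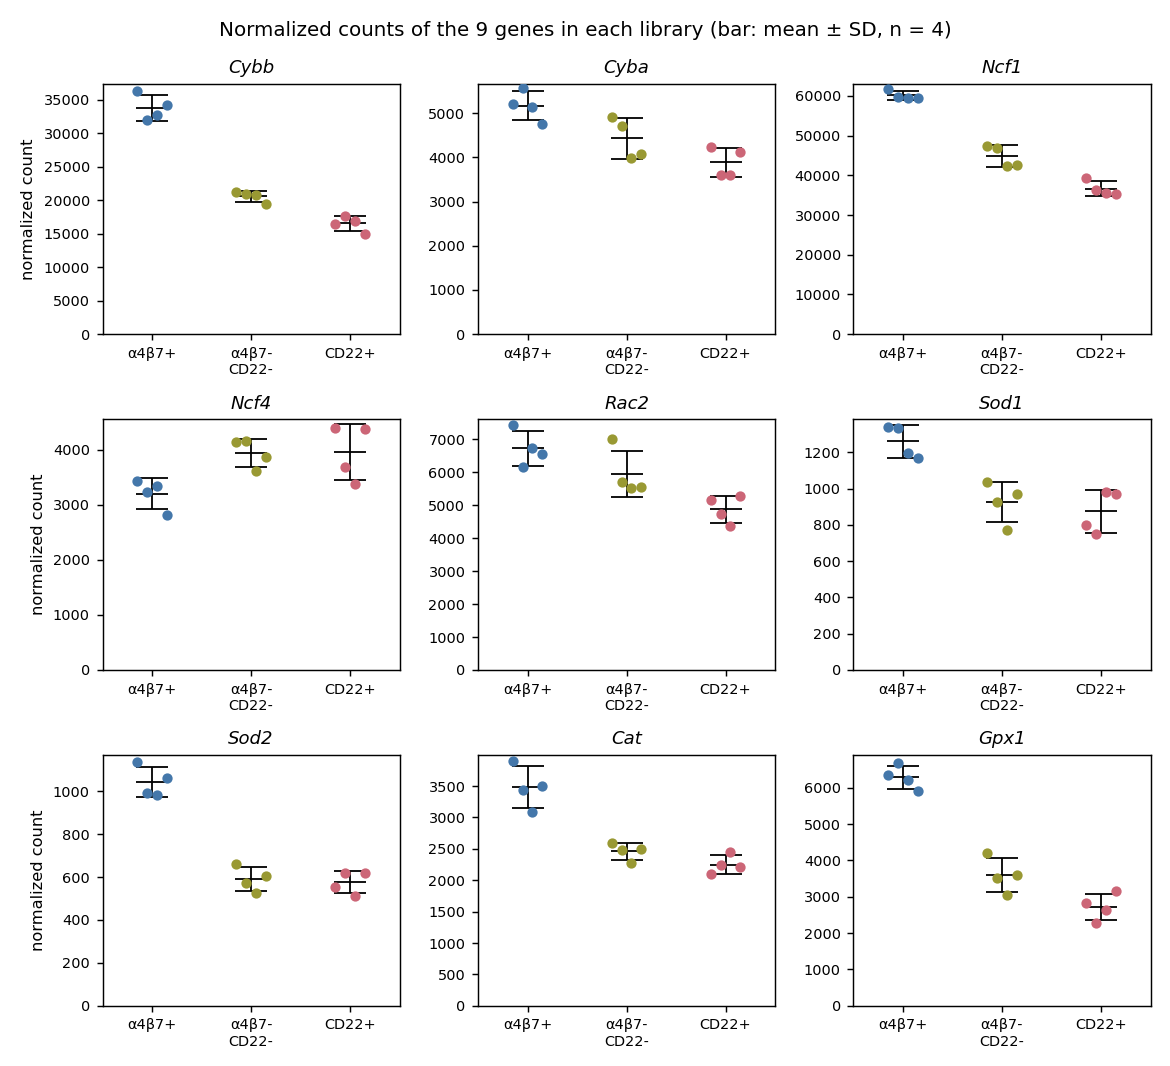
Each panel shows 1 gene, with the normalized count on the vertical axis starting at 0 and 4 libraries per subset as points, with the mean and SD as bars. Cybb fell from a mean of 33794 to 16513 normalized counts between the α4β7+ and CD22+ subsets, whereas Ncf4 was lowest in the α4β7+ subset, at 3204.

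An estimated 13858261 to 17383117 reads stood behind each library, in overlapping ranges. The normalized counts, in contrast, summed to 15783607 to 16915755 in α4β7+, 15011473 to 15740374 in α4β7- CD22-, and 14286474 to 14758267 in CD22+ libraries, without overlap and in the order of the decreases reported here. The 6 eosinophil markers were above 0 in every library. Siglecf, a lectin that marks these cells, averaged 7534 normalized counts in the α4β7+ subset, 7827 in the next, and 7340 in the CD22+ subset. The other 5 were all called lower in CD22+ than in α4β7+ libraries, from means of 25121 to 10773 for Ccr3, 30556 to 11077 for Alox15, 2864 to 1793 for Il5ra, 352 to 110 for Prg2, and 149.7 to 68.9 for Epx. The summed level of the 6 was 60328 to 74282 in α4β7+, 41859 to 47616 in α4β7- CD22-, and 30224 to 32320 in CD22+ libraries, and the part of this in the oxidase and antioxidant genes was not tested. Of the 10 neutrophil markers, Elane was at 0 in all 12 libraries and S100a8 was above 0 in 1 library, while the list summed to between 14458 and 22103, 6002 and 8077, and 2877 and 3693 in the same order, nearly all of it Retnlg (means of 18828, 6709, and 3053), which was called lower in both subsets than in α4β7+. Of the others, Ngp went the other way and was called higher in both (means of 31.6, 106, and 143), S100a9 and Mmp8 were called lower in CD22+ libraries (means of 19.0 and 34.8 against 2.87 and 4.98), and the part of this list in the results was not tested. The 9 macrophage markers summed to between 3718 and 5094, 3595 and 5859, and 3716 and 8221, and the 7 B and plasma cell markers to between 14808 and 32818, 10758 and 33188, and 15315 and 35932, so that both overlapped between subsets. The 10 epithelial markers overlapped as well, from 3356 to 7643, from 2239 to 5032, and from 1386 to 8372, while the 5 T cell markers in the table were lowest in the α4β7- CD22- subset, without overlap, at 829 to 1388, 537 to 813, and 818 to 1245, and their part in the results was not tested. The 6 Paneth cell markers summed to 180 to 542, 86.3 to 370, and 205 to 1627, with Defa30 called higher in CD22+ than in α4β7+ libraries (means of 104 and 22.3), and their part in the results was not tested. Of the 5 mast cell markers Tpsb2 was at 0 throughout and Kit made up most of a sum of at most 178. Ribosomal protein genes held 1.81 to 2.18% of the counts in α4β7+, 1.13 to 1.44% in α4β7- CD22-, and 0.893 to 1.29% in CD22+ libraries, and their part in the results was not tested either.

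The bases before the start of Cybb, Sod2, and Gpx1 are shown because these 3 genes were called lower in both subsets relative to α4β7+ eosinophils. They are the 250 bases upstream of each RefSeq start (GRCm38.p6, 5′ to 3′ on the strand of the gene), and RefSeq gave this region for 7 of the 9 genes, without Ncf4 and Rac2. The windows are chrX:9469325-9469574 on the minus strand for Cybb, chr17:13007589-13007838 on the plus strand for Sod2, and chr9:108338830-108339079 on the plus strand for Gpx1. These RefSeq starts lie downstream of the outermost GENCODE starts, so that the windows fall within the annotated genes given below, wholly for Cybb and Sod2 and in part for Gpx1. Capitals mark matches on either strand to CCAAT, the core bound by the factor NF-Y, to GAGGAA, a core bound by the myeloid factor PU.1, and to TGACNNNGC, the antioxidant response core bound by NRF2, none of which overlapped here.
Cybb: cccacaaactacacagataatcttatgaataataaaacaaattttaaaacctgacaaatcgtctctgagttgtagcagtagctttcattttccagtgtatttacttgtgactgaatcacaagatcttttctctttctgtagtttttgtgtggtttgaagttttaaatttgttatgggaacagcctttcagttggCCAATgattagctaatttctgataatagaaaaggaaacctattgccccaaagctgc
Sod2: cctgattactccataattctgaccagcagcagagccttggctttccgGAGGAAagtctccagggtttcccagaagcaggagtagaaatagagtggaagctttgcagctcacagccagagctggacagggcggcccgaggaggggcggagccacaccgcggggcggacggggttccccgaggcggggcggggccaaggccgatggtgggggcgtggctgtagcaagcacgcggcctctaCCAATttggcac
Gpx1: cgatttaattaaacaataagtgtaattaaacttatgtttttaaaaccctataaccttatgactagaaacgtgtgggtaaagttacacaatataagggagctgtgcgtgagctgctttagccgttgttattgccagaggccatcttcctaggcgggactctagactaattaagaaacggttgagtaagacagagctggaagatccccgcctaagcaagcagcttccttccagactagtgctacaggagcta
CCAAT was found in 4 of the 7 windows, those of Cybb, Sod1, Sod2, and Cat, and in 33.8% of 32851 windows of the same length before mouse genes. In Cybb it began 56 bases before the start. GAGGAA was found in 2 windows, those of Sod2 and Cat (23.3% of all windows), and TGACNNNGC in 1, that of Sod1 (10.2% of all windows). The Gpx1 window held 0 matches to the 3 motifs, and a match describes letters, not binding. The CCAAT motif was chosen after the sequences were seen. In the Cat window, 1 match to CCAAT on the reverse strand overlapped the match to GAGGAA.

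Cybb encodes gp91phox, the catalytic membrane subunit of the oxidase, and lies on chromosome X of GRCm38 from 9435252 to 9487771. It had 36317, 31956, 32724, and 34178 normalized counts in the α4β7+ libraries, 21207, 20966, 20794, and 19391 in the α4β7- CD22- libraries, and 16470, 17701, 16870, and 15010 in the CD22+ libraries. Every library of a later subset lay below every library of the subset before it, with means of 33794 ± 1918, 20589 ± 817, and 16513 ± 1125 (SD, n = 4 each). The log2 fold change relative to the α4β7+ subset was -0.71 in α4β7- CD22- eosinophils (standard error 0.0655, limma adjusted p = 3.79e-06) and -1.03 in CD22+ cells (adjusted p = 3.54e-08), which is 0.610 and 0.488 times the α4β7+ level. The CD22+ and α4β7- CD22- subsets differed by -0.32 (95% confidence interval -0.46 to -0.18, adjusted p = 0.0303), under the fold change of 1.5. The call in α4β7- CD22- eosinophils was lost with quantile normalization, where the log2 fold change was -0.58, just under a fold change of 1.5.

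Cyba encodes p22phox, which pairs with gp91phox in the membrane, and lies on chromosome 8 from 122424776 to 122432930. Its normalized counts were 5217, 5571, 5132, and 4768 in α4β7+, 4919, 4718, 3994, and 4087 in α4β7- CD22-, and 4229.7, 3609.8, 3604, and 4120.5 in CD22+ libraries. All CD22+ libraries lay below all α4β7+ libraries, and the α4β7- CD22- libraries overlapped both. The log2 fold change was -0.23 in α4β7- CD22- (95% confidence interval -0.41 to -0.04, adjusted p = 0.0953) and -0.41 in CD22+ cells (-0.60 to -0.23, adjusted p = 0.00273), and neither was called. Cyba thus had smaller estimates than Cybb in both comparisons. The predicted gene Gm20388 overlaps Cyba on the opposite strand, and the strand setting of the counting is not given in the sources used here.

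The ratio of Cyba to Cybb within a library, which does not depend on the scaling of libraries, gave a test of that difference. The log2 ratio of normalized counts was -2.80, -2.52, -2.67, and -2.84 in the α4β7+ libraries, -2.11, -2.15, -2.38, and -2.25 in the α4β7- CD22- libraries, and -1.96, -2.29, -2.23, and -1.86 in the CD22+ libraries. The α4β7+ libraries were the lowest and did not overlap the others. The mean log2 ratio was higher by 0.49 in α4β7- CD22- eosinophils and by 0.62 in CD22+ eosinophils than in the α4β7+ subset (exact two-sided permutation test, p = 0.0286 each, the smallest that 4 against 4 libraries allow, and 0.0571 adjusted over the 6 ratio tests). CD22+ and α4β7- CD22- eosinophils differed by 0.13 (exact permutation p = 0.286, adjusted p = 0.343).

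Ncf1 encodes p47phox, the organizer that carries the cytosolic subunits to the membrane, and lies on chromosome 5 from 134220053 to 134229625, where Gtf2ird2 overlaps it on the opposite strand. It was the most abundant of the 9 genes, ranking 17 of 15249 by mean normalized count. Its normalized counts were 61757, 59767, 59570, and 59501 in α4β7+, 47441, 47017, 42430, and 42605 in α4β7- CD22-, and 39358, 36403, 35444, and 35231 in CD22+ libraries. As for Cybb, the 3 subsets did not overlap. Its log2 fold change relative to α4β7+ was -0.42 in α4β7- CD22- (standard error 0.0608, adjusted p = 0.000242), under a fold change of 1.5, and -0.72 in CD22+ cells (adjusted p = 7.61e-07), where it was called lower. For CD22+ over α4β7- CD22- eosinophils it was -0.29 (95% confidence interval -0.42 to -0.16, adjusted p = 0.0321). The call in CD22+ eosinophils was lost when libraries were rescaled to the same total (log2 fold change -0.56) and with quantile normalization (-0.38).

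Ncf4 encodes p40phox, which binds a phosphoinositide on phagosomes, and lies on chromosome 15 from 78244801 to 78262580. Its estimates had the opposite sign. The α4β7+ libraries had 3438, 3232, 3334, and 2811 normalized counts, the α4β7- CD22- libraries 4135, 4152, 3608, and 3859, and the CD22+ libraries 4390.3, 3678, 3381, and 4379. All α4β7- CD22- libraries lay above all α4β7+ libraries, and the CD22+ libraries overlapped both. Its log2 fold change was 0.30 in both subsets relative to α4β7+ (95% confidence interval 0.10 to 0.50 in each, adjusted p = 0.0469 in α4β7- CD22- and 0.0360 in the CD22+ subset), under a fold change of 1.5, and 5.41e-05 between CD22+ and α4β7- CD22- eosinophils (-0.20 to 0.20).

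Rac2 encodes the hematopoietic GTPase of the complex and lies on chromosome 15 from 78559167 to 78572783. Its normalized counts were 7450.4, 6149.7, 6738, and 6569.5 in α4β7+, 7006, 5709.6, 5531, and 5552 in α4β7- CD22-, and 5145, 4736, 4359, and 5273 in CD22+ libraries. The CD22+ libraries lay below all others, while α4β7- CD22- replicate 1 lay within the α4β7+ range. The log2 fold change was -0.18 in α4β7- CD22- (adjusted p = 0.219) and was -0.46 in CD22+ cells (95% confidence interval -0.66 to -0.27, adjusted p = 0.00173) relative to α4β7+, and -0.28 between CD22+ and α4β7- CD22- (adjusted p = 0.226), and it was not called.

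The small GTPase gene Rac1 had log2 fold changes of -0.13 and -0.06 relative to α4β7+, and Cybc1, whose product is needed for the membrane subunits to be made, -0.21 and -0.15, none past the adjusted p.

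**Figure D2:**
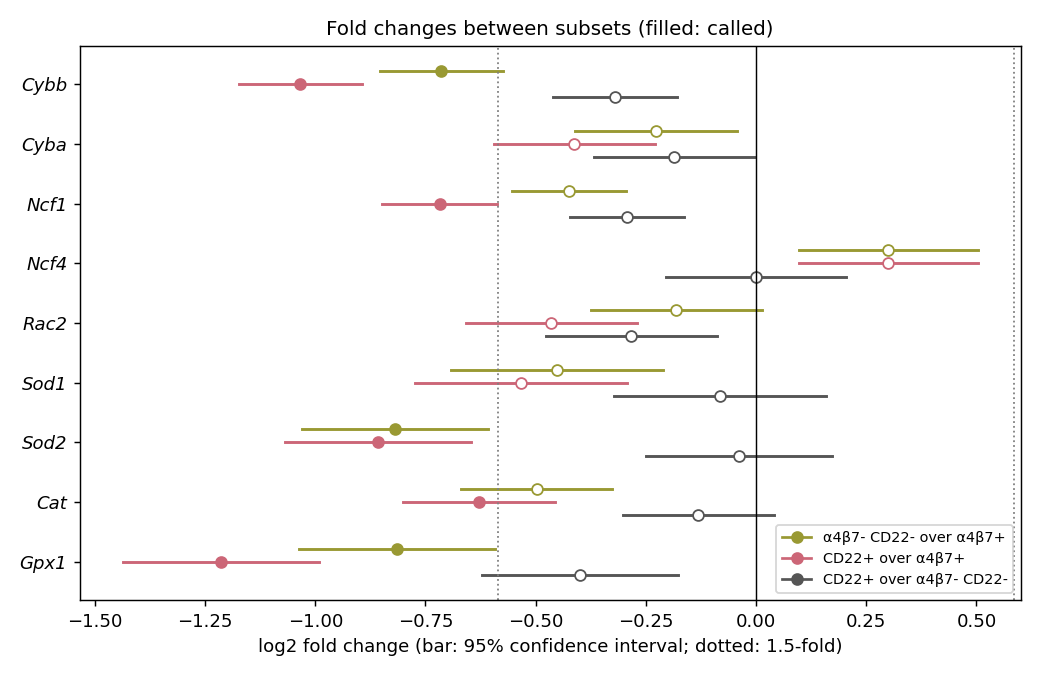
The horizontal axis gives the log2 fold change of each of the 9 genes, with 95% confidence intervals as lines, for the 3 comparisons between subsets, and filled points were called. Gpx1 and Cybb had the largest decreases, -1.21 and -1.03 in CD22+ over α4β7+ eosinophils, and Ncf4 was the only gene with estimates above 0 relative to α4β7+.

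Gpx1 encodes the cytosolic glutathione peroxidase that reduces hydrogen peroxide, and lies on chromosome 9 from 108338903 to 108340343. It is a selenoprotein, in which the codon TGA within the reading frame is read as selenocysteine at the active site instead of as a stop. The stretch of coding sequence around that codon (GENCODE transcripts of GRCm38, TGA in capitals) is shown for Gpx1 and for Gpx4, the lipid hydroperoxide peroxidase of the same family, because both were called lower in CD22+ eosinophils.
Gpx1: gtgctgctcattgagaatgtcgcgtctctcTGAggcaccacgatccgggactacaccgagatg
Gpx4: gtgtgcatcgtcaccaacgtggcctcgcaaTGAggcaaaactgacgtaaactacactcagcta
The codon is number 47 of 201 in Gpx1 and number 129 of 253 in the longest Gpx4 reading frame. Gpx1 had 6345, 6676, 6211, and 5920.1 normalized counts in the α4β7+ libraries, 4209, 3525, 3050.2, and 3599 in α4β7- CD22-, and 2833, 2288, 2633, and 3147 in CD22+ libraries. All α4β7+ libraries lay above all others, and the highest CD22+ library lay above the lowest α4β7- CD22- library. The log2 fold change relative to α4β7+ was -0.81 in α4β7- CD22- (standard error 0.104, adjusted p = 8.65e-05) and -1.21 in CD22+ cells (adjusted p = 8.42e-07), or 0.569 and 0.431 times the α4β7+ level. For CD22+ over α4β7- CD22- eosinophils it was -0.40 (95% confidence interval -0.62 to -0.18, adjusted p = 0.0996), and it was not called.

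Sod2 encodes the manganese superoxide dismutase of mitochondria and lies on chromosome 17 from 13006846 to 13040063. Its normalized counts were 1137, 994, 981, and 1062 in α4β7+, 662, 573, 526, and 606 in α4β7- CD22-, and 552, 620.5, 514, and 618 in CD22+ libraries. The α4β7+ libraries were all higher than the rest, and the other subsets covered nearly the same range. The log2 fold change was -0.82 in α4β7- CD22- (standard error 0.0989, adjusted p = 5.18e-05) and -0.86 in CD22+ cells (adjusted p = 1.60e-05) relative to α4β7+, and -0.04 between them (95% confidence interval -0.25 to 0.17). Sod2 was called lower than in α4β7+ in both subsets in all 22 alternative fits that kept the fold threshold.

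Sod1 encodes the cytosolic copper and zinc superoxide dismutase and lies on chromosome 16 from 90220754 to 90226329, with Scaf4 on the opposite strand. Its normalized counts were 1341, 1336, 1198, and 1169 in α4β7+, 1035, 924, 774, and 969 in α4β7- CD22-, and 802, 749, 981, and 968 in CD22+ libraries. The α4β7+ libraries were again all higher than the rest, which overlapped each other. Sod1 had a log2 fold change of -0.45 in α4β7- CD22- (adjusted p = 0.0135) against -0.53 in CD22+ cells (95% confidence interval -0.77 to -0.29, adjusted p = 0.00299), under a fold change of 1.5. Without CD22+ replicate 3 or CD22+ replicate 4 it was -0.59 in CD22+ eosinophils, and Sod1 was then called. Since 72.5% of its transcript is shared with the predicted gene Gm8566, its level is uncertain.

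The ratio of the mitochondrial to the cytosolic dismutase was compared within libraries. The log2 ratio of Sod2 to Sod1 was -0.24, -0.43, -0.29, and -0.14 in α4β7+, -0.64, -0.69, -0.56, and -0.68 in α4β7- CD22-, and -0.54, -0.27, -0.93, and -0.65 in CD22+ libraries. The α4β7- CD22- libraries lay below all α4β7+ libraries, whereas the CD22+ libraries spread over both. The mean was lower by 0.37 in α4β7- CD22- than in α4β7+ eosinophils (-0.37, exact two-sided permutation p = 0.0286, adjusted p = 0.0571). The CD22+ subset differed from α4β7+ by -0.32 (exact permutation p = 0.0857, adjusted p = 0.129) and from α4β7- CD22- by 0.04 (exact permutation p = 0.686).

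**Figure D3:**
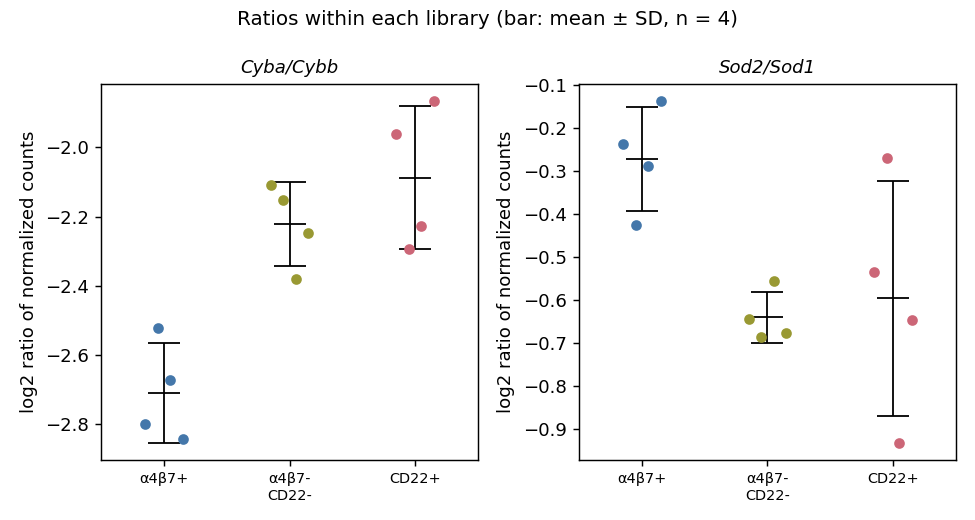
The vertical axes give the log2 ratio of Cyba to Cybb and of Sod2 to Sod1 normalized counts in each library, by subset, with the mean and SD as bars. The Cyba to Cybb ratio was lowest in the 4 α4β7+ libraries, from -2.84 to -2.52, and the Sod2 to Sod1 ratio varied most in the CD22+ subset, from -0.93 to -0.27.

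Cat encodes catalase, the peroxisomal enzyme that splits hydrogen peroxide, and lies on chromosome 2 from 103453849 to 103485160. Its normalized counts were 3900.5, 3439, 3092, and 3507 in α4β7+, 2594, 2487, 2276, and 2491 in α4β7- CD22-, and 2094, 2237, 2458, and 2210.5 in CD22+ libraries. The lowest α4β7+ library lay above the highest of the others, and the latter subsets overlapped. Cat had a log2 fold change of -0.50 in α4β7- CD22- (standard error 0.0804, adjusted p = 0.000627), under a fold change of 1.5, and -0.63 in CD22+ cells (adjusted p = 4.29e-05), where it was called lower. The call in CD22+ eosinophils was lost when libraries were rescaled to the same total (-0.47), with quantile normalization (-0.55), and without α4β7+ replicate 1 (-0.57).

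The part of the log2 difference between α4β7+ and CD22+ eosinophils that was present in the α4β7- CD22- subset was 95.5% for Sod2, 84.6% for Sod1, 79.2% for Cat, 69.1% for Cybb, 67.1% for Gpx1, 59.2% for Ncf1, 55.1% for Cyba, and 39.0% for Rac2, and for Ncf4, whose estimates were above 0, it was all but complete. Whether the first and second steps differed was tested as a contrast in the same model, which called 1.23% of all genes tested in either direction at an adjusted p of 0.05 and 1 of the 9 genes. That gene was Sod2, with a first step of -0.82 and a second of -0.04, a difference between the steps of 0.78 on the log2 scale (95% confidence interval 0.41 to 1.15, limma adjusted p = 0.0395). Leaving out 1 library at a time ended the call in 9 of 12 fits, as did 3 other settings, where the adjusted p reached 0.140. For Cybb the difference of the steps was 0.39 (adjusted p = 0.117), and for Rac2 it was -0.10 (adjusted p = 0.870), so that an order of the genes by their steps was not established.

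Levels of different genes were compared per kilobase of the longest coding transcript, and the order holds for that length only. In α4β7+ eosinophils the order of mean normalized counts per kilobase was Ncf1 (20870.5 ± 374, SD, n = 4), Cybb (7112 ± 404), Cyba (6952 ± 443), Gpx1 (5866 ± 293), Rac2 (2214 ± 178), Ncf4 (2188 ± 188), Sod1 (1967 ± 141), Cat (1334 ± 127), and Sod2 (178 ± 12.2). The libraries of Cybb and Cyba overlapped, as did those of Rac2, Ncf4, and Sod1, and these neighbours were not told apart. In CD22+ eosinophils the order was Ncf1 (12703 ± 660.1), Cyba (5230 ± 445), Cybb (3475 ± 237), Ncf4 (2703 ± 347), Gpx1 (2542 ± 336), Rac2 (1606 ± 137), Sod1 (1365 ± 183), Cat (861 ± 58.0), and Sod2 (98.3 ± 8.90). Cyba then stood above Cybb without overlap, while Ncf4 overlapped Gpx1 and Rac2 overlapped Sod1. With the median length of the coding transcripts the order was different. In α4β7+ eosinophils Cybb then stood apart from Cyba (13144 ± 746 against 7485 ± 477 normalized counts per kilobase), Gpx1 (7990 ± 399) had a higher mean than Cyba and Cat (2055 ± 195) than Sod1 (1967 ± 141), with overlapping libraries in both pairs, and Rac2 (4087 ± 329) and Ncf4 (2840 ± 244) were apart. For Cybb that length was 2571 bases in place of 4752, and it had 6423 ± 438 normalized counts per kilobase in CD22+ eosinophils against 5631 ± 479 for Cyba, again with overlapping libraries.

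**Figure D4:**
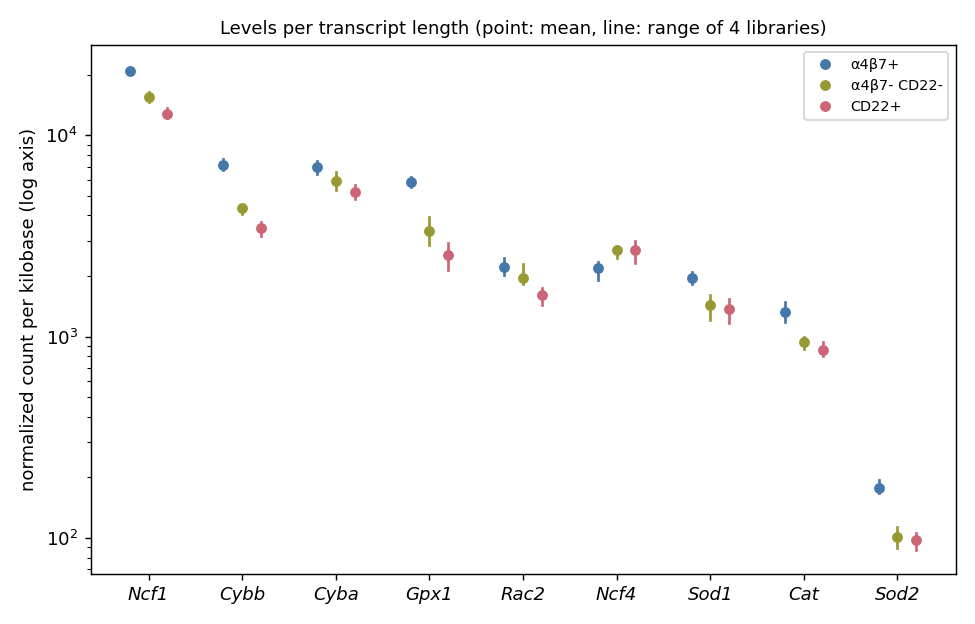
The vertical log axis gives normalized counts per kilobase of the longest coding transcript for the 9 genes, with the mean of 4 libraries as a point and their range as a line, colored by subset. Ncf1 stood highest in every subset and Sod2 lowest, at 178, 101, and 98.3.

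The genes whose pattern over the 12 libraries was most like that of Cybb, by Pearson correlation of log2 values among 9177 genes with a symbol and a mean of at least 100 normalized counts, were Flna (r = 0.997), Zfp36 (0.993), Rcn1 (0.990), Man2b1 (0.989), and Chst13 (0.989). Of these, Flna, the actin cross-linker filamin A, had log2 fold changes of -0.89 and -1.26 relative to α4β7+. Zfp36, which encodes the mRNA decay factor tristetraprolin, had -1.08 and -1.59. The genes most like Sod2 were Itgb1 (0.987), Myc (0.974), Gars (0.973), Ctsd (0.973), and Pgd (0.972). Itgb1, the integrin β1 chain, had -0.92 and -1.01, and the transcription factor gene Myc -3.91 and -3.99. Among the 9 genes, the correlation with Cybb was 0.975 for Ncf1, 0.951 for Cat, 0.930 for Gpx1, 0.925 for Sod2, between 0.804 and 0.808 for Rac2, Cyba, and Sod1, and -0.738 for Ncf4. These correlations describe 12 libraries in 3 subsets, which all genes share, and largely follow the subset means.

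A list of 68 further genes of the oxidase and of antioxidant metabolism was examined, of which 60 could be tested. Relative to the α4β7+ subset, α4β7- CD22- eosinophils had 2 genes lower (Nqo1 and Mgst1) and 2 higher (Hvcn1 and Hmox1), or 3.33% in each direction against 4.35% and 3.70% of all genes, and the median log2 fold change of the list was -0.20. These counts rest on single libraries, since 6 were lower without α4β7- CD22- replicate 1 and 4 without α4β7+ replicate 2, and 0 were higher without α4β7+ replicate 4 and 1 without any other library of these subsets. The CD22+ subset had 9 lower and 2 higher, with a median of -0.24. The split was 6 and 3 with libraries rescaled to the same total and 9 and 4 with quantile normalization, and leaving out 1 library gave 7 to 9 lower and 1 to 3 higher (1 without α4β7+ replicate 4, 3 without α4β7+ replicate 1 or 2). The share called lower there was 15% of the genes tested, against 6.39% of all genes, and the share called higher was 3.33%, against 5.60%. Between CD22+ and α4β7- CD22- eosinophils 0 of the 60 were called by limma, with 0 past the adjusted p alone and 11 at an unadjusted p under 0.05 (9 lower and 2 higher, against 6.02% and 3.65% of all genes), and the median was -0.03.

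Among oxidase partners and regulators, 1 of 7 genes was called lower in CD22+ eosinophils, where 6.39% of all genes were, so that a single call is near the background. It was Prkcd, a protein kinase C that phosphorylates p47phox (log2 fold change -0.77, adjusted p = 2.21e-06). Hvcn1, the voltage-gated proton channel that balances the charge moved by the oxidase, had 3471, 3557, 2846, and 2707 normalized counts in the α4β7+ libraries, 4894, 4734, 4174, and 5322 in α4β7- CD22-, and 4811, 4573, 4063, and 5225 in CD22+ libraries. The α4β7+ libraries were all lower than the rest. Hvcn1 was the 1 gene of the 7 called higher in α4β7- CD22- eosinophils, where 3.70% of all genes were. Its log2 fold change was 0.61 in α4β7- CD22- (adjusted p = 0.00118) against 0.57 in CD22+ cells (adjusted p = 0.00117), of which the first was called and the second lay just under a fold change of 1.5. The second was called with libraries rescaled to the same total (0.73), with quantile normalization (0.68), and without α4β7+ replicate 1 (0.62), α4β7+ replicate 2 (0.64), or CD22+ replicate 3 (0.64). Without α4β7+ replicate 3, α4β7+ replicate 4, or α4β7- CD22- replicate 4 the first was 0.54 to 0.56 and was not called. Of 9 other NADPH oxidase genes, 4 could be tested. Among these, Nox4 alone (25%) was called higher in CD22+ eosinophils, against 5.60% of all genes. Its level was low (mean 85.9 in α4β7+ and 133 in CD22+, log2 fold change 0.62, adjusted p = 0.0154). The call was lost with a pseudocount of 10 and without α4β7+ replicate 4 or CD22+ replicate 3.

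Of the 14 glutathione genes tested, 2 (14.3%) were called lower in CD22+ eosinophils, against 6.39% of all genes. Mgst1, a microsomal glutathione transferase, fell by 1.05 in α4β7- CD22- and by 1.55 in CD22+ eosinophils on the log2 scale (adjusted p = 0.000437 and 5.72e-06). Gpx4 had 1852, 1909.7, 1941, and 1735 normalized counts in the α4β7+ libraries, 1412, 1319, 1246, and 1266 in α4β7- CD22-, and 1054, 974, 1085, and 1164 in CD22+ libraries. Its subsets did not overlap, and its log2 fold change was -0.50 in α4β7- CD22- (adjusted p = 0.000419), under a fold change of 1.5, and -0.80 in CD22+ cells (adjusted p = 2.79e-06), where it was called lower. Of 13 peroxiredoxin and thioredoxin genes, 2 (15.4%) were called lower in CD22+ eosinophils, with the same 6.39% of all genes. These were Prdx6, a peroxiredoxin that reduces phospholipid hydroperoxides (log2 fold change -0.86, adjusted p = 1.24e-05), and thioredoxin, Txn1 (-0.74, adjusted p = 0.00115). Txn1 was not called with libraries rescaled to the same total (-0.58). On the adjusted p alone, 3 of the 13 were lower and 1 higher there, against 1691 and 1532 of all 15249 genes. The higher gene was Txnip, with means of 14761 in α4β7+ and 19195 in CD22+ libraries (log2 fold change 0.38, limma adjusted p = 0.00262). Prdx1 had log2 fold changes of -0.19 and -0.29, neither past the adjusted p, and of 4 methionine sulfoxide reductase genes, which repair oxidized methionine, Msra passed the adjusted p in CD22+ libraries (-0.58, adjusted p = 0.00212) without reaching a fold change of 1.5. Ccs, the copper chaperone of Sod1, had log2 fold changes of 0.09 and -0.03, and the extracellular dismutase gene Sod3 of -0.27 and 0.35 at no more than 30.0 normalized counts in any library, none past the adjusted p.

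The NRF2 response is the main transcriptional program against oxidants. The 6 genes grouped under it include NRF2 itself and its inhibitor, and they are not a list of its targets. In each subset relative to α4β7+, 1 of the 6 (16.7%) was called lower and 1 higher. Of all genes, 4.35% were called lower and 3.70% higher in α4β7- CD22- eosinophils, and 6.39% and 5.60% in CD22+ eosinophils. Nqo1, a quinone reductase, had 906, 863, 838, and 743 normalized counts in the α4β7+ libraries, 394, 447, 385, and 332 in α4β7- CD22-, and 228, 315, 299, and 293 in CD22+ libraries. No library of a later subset reached the level of an earlier one, and the log2 fold change was -1.11 in α4β7- CD22- (standard error 0.125, adjusted p = 2.83e-05) and -1.57 in CD22+ cells (adjusted p = 4.17e-07). Hmox1, heme oxygenase 1, had 26.9, 41.9, 51.8, and 42.6 normalized counts in the α4β7+ libraries, 77.3, 85.5, 66.0, and 55.2 in α4β7- CD22-, and 88.8, 82.1, 95.5, and 82.5 in CD22+ libraries. It was lowest in the α4β7+ libraries, without overlap, and was called higher by 0.80 in α4β7- CD22- (adjusted p = 0.0317) and by 1.11 in CD22+ eosinophils (adjusted p = 0.00303). The first call was lost without the filter on low counts, with only the compared subsets in the model, and without α4β7+ replicate 1, 2, or 4 or α4β7- CD22- replicate 1, 2, or 3, where the adjusted p reached 0.0973. Nfe2l2, the gene of NRF2 itself, was at -0.30 (adjusted p = 0.0167) and at -0.37 (adjusted p = 0.00263) on the log2 scale, under a fold change of 1.5, and Keap1, its inhibitor, had 0.08 and 0.20.

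The 9 genes grouped as NADPH supply were mainly those of the pentose phosphate pathway, and not all of them encode an enzyme that makes NADPH. Relative to α4β7+, their median log2 fold change was -0.34 in α4β7- CD22- and -0.46 in the CD22+ subset, against 0.00305 and 0.0138 for all genes. In α4β7- CD22- eosinophils 0 of the 9 were called, against 4.35% of all genes lower and 3.70% higher. In CD22+ eosinophils 2 of the 9 (22.2%, against 6.39% of all genes), Pgls and Taldo1, were called lower (-0.67, adjusted p = 0.0270, and -0.59, adjusted p = 0.000539). Both calls were lost with libraries rescaled to the same total (-0.51 and -0.43) and in 4 of 12 fits without 1 library, among them those without α4β7+ replicate 2, CD22+ replicate 2, or CD22+ replicate 3. Pgls was also not called without α4β7+ replicate 3, nor Taldo1 without α4β7+ replicate 1 or with quantile normalization. Epx, the peroxidase of eosinophil granules, had 164, 173, 121, and 141 normalized counts in the α4β7+ libraries, 121, 173, 89.5, and 134 in α4β7- CD22-, and 64.8, 74.9, 58.7, and 77.2 in CD22+ libraries. The CD22+ libraries were all below the rest, and Epx was called lower in CD22+ than in α4β7+ eosinophils (-1.10 on the log2 scale, adjusted p = 0.00138). Relative to α4β7- CD22-, the log2 difference of Epx in CD22+ libraries was -0.87 (adjusted p = 0.0704), and it was called there when the replicate number was added as a block (adjusted p = 0.0355) and without α4β7- CD22- replicate 3.

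**Figure D5:**
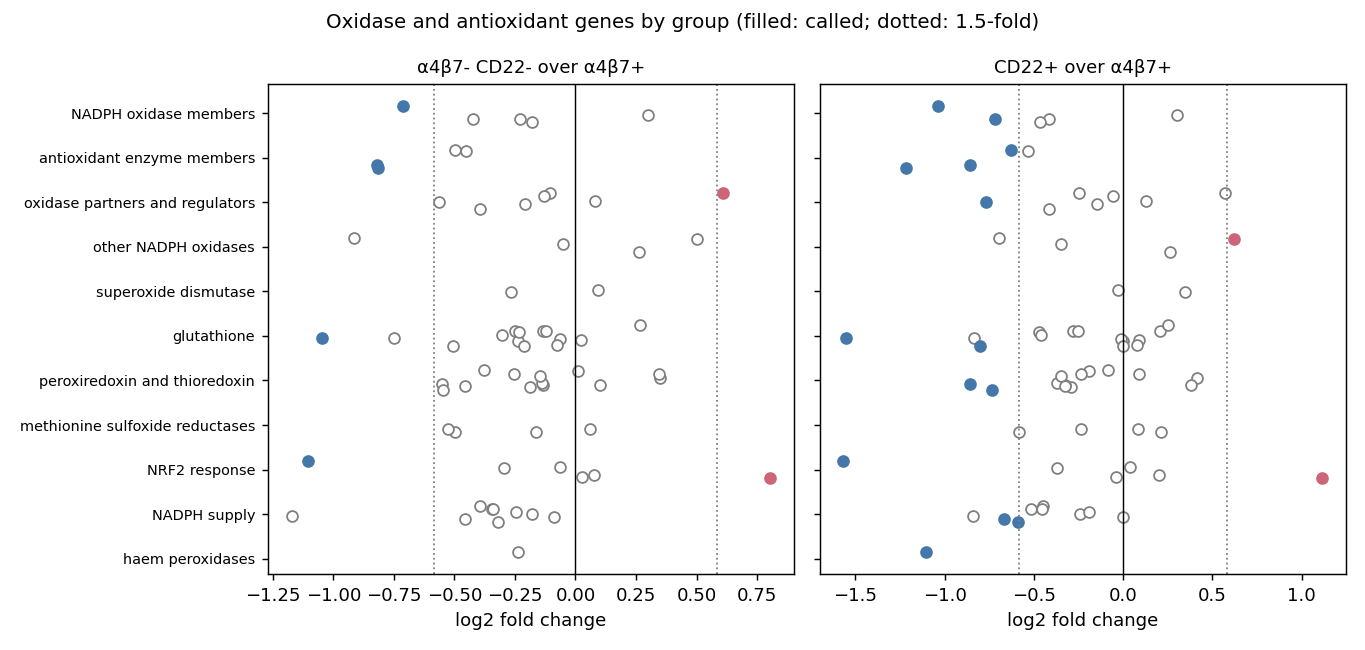
Each point is 1 gene at its log2 fold change (horizontal axis) relative to α4β7+ eosinophils, by group (rows), in α4β7- CD22- eosinophils on the left and CD22+ eosinophils on the right, and filled points were called lower (blue) or higher (red). On the right, 9 genes of the wider list were called lower and 2, Hmox1 and Nox4, higher.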

How the data were processed

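RNA from 3 sorted eosinophil subsets was measured in 12 libraries made from 3 ng of total RNA each. According to the submitters' processing notes and the study's methods, reads were trimmed with Trimmomatic 0.39, pseudoaligned to the mouse genome (mm10, GRCm38) with kallisto 0.46.1, and normalized with DESeq2 1.38.2. The deposited signal values are the normalized counts the authors obtained in this way for 36047 genes, and every column was matched to a library. In each library, 30.8 to 64.2% of the low values fell within 5% of a whole number of reads, so whole reads were not recovered, tests for counts were not run, and read totals are approximate.

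Differences were tested on log2(normalized count + 1) with limma 3.58.1 (R 4.3.3) for genes that averaged over 10. This scale shrinks the fold changes of low genes. All 12 libraries entered 1 model, and the prior variance was allowed to follow mean expression. P-values measure the spread between libraries of pooled mice. Genes were called at a Benjamini-Hochberg adjusted p, over all 15249 genes tested, of no higher than 0.05 together with a 1.5-fold or larger difference. Ratios within libraries were compared with exact two-sided permutation tests. Libraries with the same replicate number deviated from their subset means with correlations of -0.059 to 0.203, over 0.1 in 4 of 4 pairs between α4β7- CD22- and CD22+, in 2 of 4 between α4β7+ and α4β7- CD22-, and in 1 of 4 between α4β7+ and CD22+. In 18 of 24 comparisons of a library with another subset, it correlated best with the library of its own number, 1 of the 4 there. The main fit and the ratio tests treated libraries of the same number as unpaired. The labels do not say what a number shares, and the block was kept as an alternative.

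The 9 genes, the wider list, and the tests were chosen with earlier results of these data known. Named beside the 9 genes are 13 fixed genes of the list (1 more is not reported here), for each comparison and direction up to 5 called list genes with the largest fold change (the others called, Prkcd, Pgls, and Taldo1, and Msra, which was not called, were named after their values were seen), and the 5 genes most correlated with Cybb and with Sod2. Alternatives were pseudocounts of 0.1 and 10, filters at 0 and 50, libraries rescaled to the same 75th percentile or the same total, quantile normalization, no trend, the replicate block, only the compared subsets, the adjusted p alone, and each library left out in turn. All 36047 identifiers matched the GENCODE annotation of GRCm38, and shared transcript stretches of at least 100 bases at 90% identity were found with BLAST 2.17.0. Sequences are from RefSeq (promoters, GRCm38.p6) and GENCODE.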

Additional observations from a re-analysis of the deposited data

Results flagged for a closer look

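Within a subset of 4 libraries, 5 of 81 groups of values examined held a library far from the other 3 by Dixon's test at the 95% level, which chance alone gives in about 1 of 20 groups. Ncf1 was 61757 in α4β7+ replicate 1, against 59501 to 59767 in the other α4β7+ libraries. Rac2 was 7006 in α4β7- CD22- replicate 1, against 5531 to 5709.6, and this library kept the Rac2 values of that subset from separating from α4β7+. Prdx1 was 950 in α4β7- CD22- replicate 4, against 822 to 834, Txn1 was 1095 in α4β7+ replicate 2, against 869 to 907, and Keap1 was 303 in α4β7- CD22- replicate 3, against 273 to 275.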

How the results depend on the processing

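Cybb, Sod2, and Gpx1 in CD22+ and Sod2 and Gpx1 in α4β7- CD22- eosinophils were called lower than in α4β7+ under each of 22 alternatives. With the adjusted p alone, 7 of the 9 genes passed in α4β7- CD22- and 9 in CD22+ eosinophils relative to α4β7+, and 2 between the latter; 16 and 24 of the wider list passed, and of all genes 2265, 3223, and 164. Rescaling to the same total or quantile normalization left 3 of the 9 genes called in CD22+ eosinophils, all lower. Of all genes, 690 were lower and 1513 higher at the same total, and 938 lower and 884 higher with quantile normalization. Rescaling to the same total moved the median of all genes by 0.16. Without the trend, 54 genes in all were called between CD22+ and α4β7- CD22- eosinophils. The replicate block changed no call of the 9 genes. With it, or without α4β7- CD22- replicate 3, 1 gene of the wider list (Epx) was called between the latter subsets, against 0. Leaving out 1 library gave 2 to 7 calls of that list in α4β7- CD22- eosinophils (2, both lower, without α4β7+ replicate 4, and 7, of which 6 lower, without α4β7- CD22- replicate 1). For the step difference, called in Sod2 alone, 0 of 9 genes were called with no filter, with rescaling by the 75th percentile, without the trend, and, over a range of 0 to 1, in 9 of 12 fits that left out 1 library: α4β7+ replicates 1, 2, and 4, α4β7- CD22- replicates 2, 3, and 4, and CD22+ replicates 1, 2, and 4. The cause of these changes was not tested.

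With 3 against 4 libraries, the smallest exact permutation p is 0.0571, so the ratio tests cannot pass; the Sod2 to Sod1 difference was then -0.42 to -0.32 in α4β7- CD22- relative to α4β7+, and the Cyba to Cybb difference 0.44 to 0.55 there and 0.55 to 0.69 in CD22+ eosinophils. With quantile normalization the Cyba to Cybb difference was 0.41 in α4β7- CD22- (exact permutation p = 0.0571). Between CD22+ and α4β7- CD22- the Sod2 to Sod1 difference was -0.0645 to 0.156 when 1 library was left out, below 0 without CD22+ replicate 2. Other estimates near 0 also changed sign. Between the same subsets, Ncf4 was -0.0314 with rescaling by the 75th percentile and -0.0529 to 0.0726 without 1 library, Sod2 0.0250 at the same total and -0.0934 to 0.0175 without 1 library, Cybc1 -0.00898 to 0.0983 without 1 library, and Hvcn1 0.0283 at the same total, 0.0441 with quantile normalization, and -0.0985 to 0.0297 without 1 library. Relative to α4β7+, Rac1 was 0.10 and Cybc1 0.0112 in CD22+ at the same total, Rac1 0.0366 there with quantile normalization, Keap1 -0.0270 to 0.169 in α4β7- CD22- without 1 library, and Ccs -0.0101 to 0.210 in α4β7- CD22- and -0.12 to 0.0906 in CD22+ eosinophils without 1 library and 0.13 in the latter at the same total. Depth limits low genes such as Sod3, since 3 reads correspond to 2.55 to 3.48 normalized counts, for counting error only.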
